A study of Homo sapiens with 8 samples.

Results

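Blood group antigens sit on proteins of the red cell surface, and the genes described here encode 4 such proteins: RHAG, KEL, BCAM and CD44. They are the members, of 7 listed blood group genes, that have a probe set for which the platform's annotation names 1 gene only. No such probe set names GYPB, GYPC or GYPE, which encode glycophorins, and these were not analysed here. Probe sets naming several genes (1801) were not used, so any shared among glycophorins were not looked at. The 4 genes have 19 probe sets of their own, of 54675 on the array. Of these, 15 had signal above the filter used for testing. All 4 genes entered the test, among 14162 genes.

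RHAG, the Rh-associated glycoprotein, is a membrane channel for ammonium and related molecules, and the Rh blood group proteins need it to reach the cell surface. KEL carries the Kell antigens and is a zinc peptidase that activates endothelin-3, linked at the membrane to the XK protein. BCAM carries the Lutheran antigens and is a receptor for laminin that attaches to spectrin inside the cell. CD44 carries the Indian antigens, binds hyaluronan in the matrix, and is linked by ezrin-type proteins to actin. RHAG and KEL are largely erythroid genes that come on as red cell precursors mature, whereas CD44 is found on most blood cells and declines during late red cell maturation.

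Expression was measured in total RNA on 8 Affymetrix arrays of cells labelled HEL, a line from a human erythroleukaemia whose JAK2 kinase carries an activating mutation. The drug arm has 2 arrays of CEP701 (lestaurtinib, an inhibitor of JAK2 and FLT3) at 0.5 µM for 16 h and 2 of DMSO for 16 h. The shRNA arm has 2 arrays of a scramble shRNA control and 2 of a stable line made with 1 pLKO lentiviral shRNA against PRMT5, an arginine methyltransferase. Whether replicates were separate cultures is not said in the labels, so the p-values reflect the spread among these arrays alone, part or all of which may be technical, and the number of arrays limits the precision.

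PRMT5 signal was 1794 and 984 on the scramble arrays and 664 and 315 on the PRMT5 shRNA arrays, against 3419 and 3221 with DMSO and 3023 and 2750 with CEP701. The log2 difference between the shRNA arm's groups was -1.52 ± 0.35 (SE; limma adjusted p = 0.217). Arrays of the 2 arms stood far apart: Pearson's r across the 14162 genes was 0.954 to 0.978 within an arm and 0.804 to 0.845 between arms.

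The marker genes also differed by arm, although all 8 arrays carry the same cell line label. The transferrin receptor TFRC, which takes up iron, lay between 33295 and 51632 on all arrays. Embryonic globin HBE1 had signals of 9433 to 11721 in the drug arm and 298 to 786 in the shRNA arm. Adult globin HBB had 806 to 1613 in the drug arm and 21286 to 48761 in the shRNA arm. MPO, the peroxidase of granulocyte precursors, had 4.13 to 63.5 in the drug arm and 10913 to 20593 in the shRNA arm. The summed signal of the 9 monocyte and granulocyte markers was 5657 to 9414 in the drug arm and 43036 to 74337 in the shRNA arm, and all 9 passed the filter. Sums were also higher in the shRNA arm for the 6 measured megakaryocyte markers (48009 to 111250 against 11958 to 12180) and for the 9 epithelial or fibroblast markers, of which 7 passed (3143 to 6315 against 649 to 740). The megakaryocyte rise was mainly PF4 (21810 to 45436 against 1054 to 1980) and PPBP (18387 to 47271 against 357 to 565), whereas ITGA2B, GP9 and GP1BA overlapped between the arms. The other rise was mainly EPCAM, CDH1 and KRT19, whereas COL1A1 was lower (199 to 261 against 338 to 476). The 8 lymphocyte markers summed to 1752 to 2332 in the drug arm and 3373 to 6997 in the shRNA arm, with CD3G below the filter's minimum on every array. That rise was mainly NKG7 (189 to 263 and 2615 to 6310), whereas CD2 was lower in the shRNA arm (854 to 1234 and 98.3 to 168) and CD79A overlapped. The 8 erythroid markers with values, of 12 listed, summed to 55057 to 64843 in the drug arm and 89354 to 140916 in the shRNA arm. HBG1, HBG2, HBA1 and HBA2 have no probe set naming 1 gene only, so they are not in the sum. The rise was mainly HBB and HBD (HBD 446 to 1013 and 32225 to 39504). AHSP and, narrowly, EPOR (205 to 540 and 541 to 723) were also higher. HBE1 and HBZ were lower in the shRNA arm, and TFRC and ALAS2 overlapped. Cell source, viral vector, handling and vehicle therefore cannot be told apart in any value set across the arms, and fewer cells of a type cannot be told apart from less RNA per cell.

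**Figure D1:**
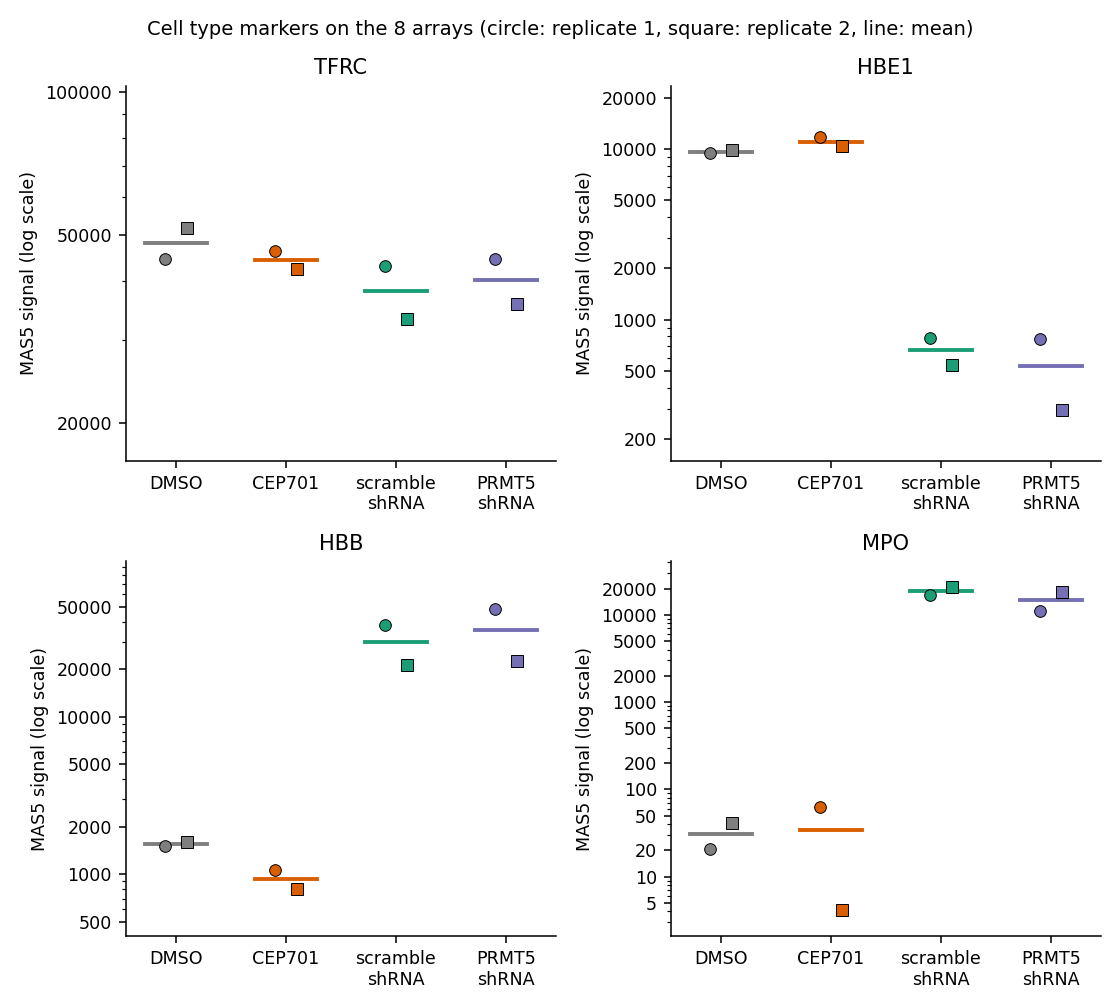
MAS5 signal (log scale) of 4 marker genes in the 4 groups. Each symbol is an array and each line a group mean. HBE1 is high in the drug arm, HBB and MPO are high in the shRNA arm, and TFRC lies between 33295 and 51632 on all 8 arrays.

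The bases just upstream of the annotated starts of RHAG, KEL and CD44 are shown because RHAG was lower and CD44 higher on the scramble arrays than on the DMSO arrays, and KEL, which is erythroid like RHAG, had the largest difference with CEP701 among the members. The sequences are from RefSeq (GRCh38.p14), 250 bases each, 5′ to 3′ on the gene's strand and ending at the base before the start. Capitals mark GATA motifs, the words read by the GATA factors of blood cells (GATAA or GATAG after an A or a T, on either strand).
RHAG, chr6:49636840-49637089, minus strand: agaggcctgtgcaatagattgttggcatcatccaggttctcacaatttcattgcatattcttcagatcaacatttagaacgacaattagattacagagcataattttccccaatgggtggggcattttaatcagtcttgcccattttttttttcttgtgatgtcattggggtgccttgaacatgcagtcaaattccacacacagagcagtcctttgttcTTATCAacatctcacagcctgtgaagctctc
KEL, chr7:142962364-142962613, minus strand: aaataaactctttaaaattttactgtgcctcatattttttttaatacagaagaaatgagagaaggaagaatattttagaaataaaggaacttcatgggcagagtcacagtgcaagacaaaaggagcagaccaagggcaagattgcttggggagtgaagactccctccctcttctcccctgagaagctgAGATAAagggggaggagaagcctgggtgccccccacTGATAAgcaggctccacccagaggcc
CD44, chr11:35138921-35139170, plus strand: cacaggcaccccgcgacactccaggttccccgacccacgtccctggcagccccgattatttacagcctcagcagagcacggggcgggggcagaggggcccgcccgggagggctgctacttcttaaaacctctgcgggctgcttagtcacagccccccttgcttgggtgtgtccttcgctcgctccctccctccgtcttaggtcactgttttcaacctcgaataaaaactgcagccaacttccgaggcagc

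The RHAG window held 1 GATA match, 26 to 31 bases before the start, and the KEL window held 2, at 57 to 62 and 21 to 26 bases before it. The CD44 window and both BCAM windows (BCAM has 2 annotated starts) held none, and 22.3% of the 35116 promoter windows in the table held at least 1. The CACCC-type word CCNCNCCC, the kind read by KLF factors, had 1 match each in RHAG, KEL and CD44 and was found in 53.4% of all windows. Each BCAM window held 7 matches, some overlapping one another. The 2 BCAM windows overlap, and these are the same 7 sites. The STAT word TTCNNNGAA was found in none of these genes' windows and in 6.57% of all windows. A match is a description of letters in this window only.

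RHAG had by far its higher signals in the drug arm. They were 22215 and 20886 with CEP701, 18040 and 17475 with DMSO, 6516 and 8316 with scramble shRNA and 8158 and 6557 with PRMT5 shRNA. Both CEP701 arrays lay above both DMSO arrays, and the groups of the shRNA arm overlapped. The order of the group means was CEP701, DMSO, scramble and PRMT5 shRNA, of which the last pair did not differ beyond its spread.

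KEL was read by 1 probe set. Its signals were 647 and 731 with CEP701, 379 and 403 with DMSO, 294 and 186 with scramble shRNA and 348 and 147 with PRMT5 shRNA. The CEP701 arrays were the highest and the DMSO arrays next, with no overlap, and the shRNA arm's groups overlapped below them.

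BCAM lay near the filter's minimum of 60.0. Its signals were 101 and 146 with CEP701, 57.3 and 81.0 with DMSO, 118 and 175 with scramble shRNA and 92.4 and 53.5 with PRMT5 shRNA. The CEP701 and scramble arrays overlapped at the top of the order, and the DMSO and PRMT5 shRNA arrays overlapped at the bottom. Its other probe set did not exceed the minimum on any array.

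CD44 was the member that was higher in the shRNA arm. Its brightest probe set had 8023 and 7812 with CEP701, 8603 and 9225 with DMSO, 24398 and 28824 with scramble shRNA and 20656 and 32944 with PRMT5 shRNA. The PRMT5 shRNA and scramble arrays overlapped at the top, DMSO came next, and CEP701 was lowest without overlapping DMSO.

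**Figure D2:**
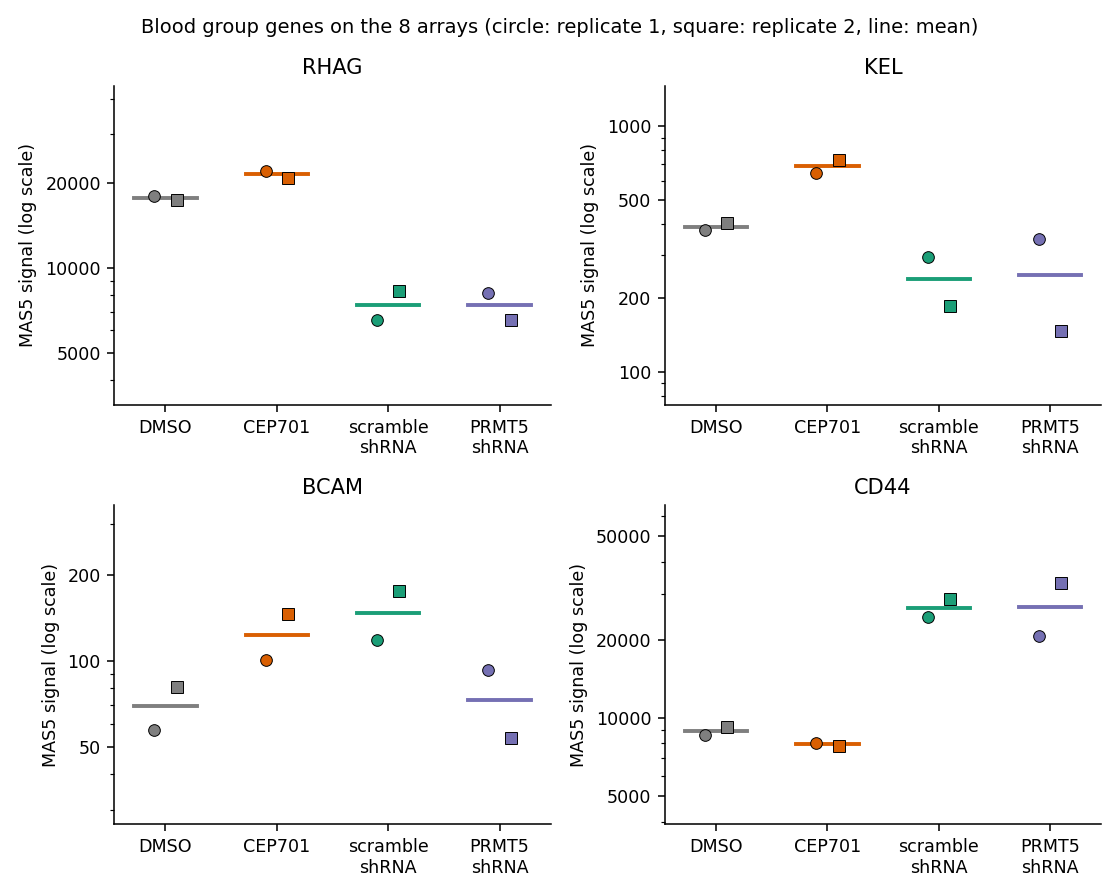
MAS5 signal (log scale, a different range in each panel) of RHAG, KEL, BCAM and CD44 in the 4 groups, with a symbol for each array and a line for each mean. RHAG and KEL are highest with CEP701, CD44 lies between 20656 and 32944 in the shRNA arm, and BCAM is highest with CEP701 and scramble shRNA.

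The comparison of CEP701 with DMSO asks whether 16 h with the drug changed these transcripts. RHAG averaged 21550 ± 939 against 17758 ± 400, KEL 689 ± 59.3 against 391 ± 17.1, and BCAM 123 ± 32.2 against 69.2 ± 16.8 (SD, n = 2). CD44 averaged 7917 ± 149 against 8914 ± 440. None of the 4 genes passed limma's test over all genes, none had an unadjusted p under 0.05, and 5.78% of all genes passed. For 3 members both CEP701 arrays lay above both DMSO arrays, and for 1, CD44, below. Groups that do not overlap were found for 62.0% of all genes, 36.3% higher and 25.7% lower.

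KEL had the largest of the members' differences, 1.74-fold higher on the log2(signal + 10) scale. The log2 difference was 0.80 ± 0.37 (SE; limma adjusted p = 0.226; 95% interval -0.04 to 1.64), and it was 0.76 and 0.84 between arrays with the same replicate number. KEL rose when the 4 drug-arm arrays were fitted alone (adjusted p = 0.00862, where 22.7% of all genes passed), a fit that leaves out the wider spread of the shRNA arm, where KEL had 147 and 348 in 1 group. It passed in 2 of 22 alternatives.

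BCAM stood at 0.75 ± 0.41 (adjusted p = 0.304; interval -0.18 to 1.68) at a level where the added 10 understates differences. RHAG stood at 0.28 ± 0.16 (adjusted p = 0.318; interval -0.08 to 0.63), and its sign depended on the probe set and on the scaling. Its probe set 206146_s_at was at 0.15 and 211254_x_at at -0.32, each with groups that did not overlap. Scaling to the poly-A controls put RHAG at -0.22, with the median of all genes moved from 0.10 to -0.40, so that it lay 0.18 above that median under both. The same scaling put KEL at 0.30 (adjusted p = 0.689), BCAM at 0.25 (0.761) and CD44 at -0.67 (0.0845), and each kept its distance from the median of all genes. The split of all genes that passed turned with the scaling, from 530 higher and 289 lower to 245 and 569 with median scaling and 86 and 984 with poly-A control scaling. CD44 stood at -0.17 ± 0.20 (adjusted p = 0.646; interval -0.62 to 0.28).

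The 10 CD44 probe sets that passed the filter ran from -0.33 to 0.52, with 6 higher and 4 lower, and none passed (adjusted p from 0.374 to 0.976 over all 32646 probe sets tested one by one, of which 3.84% passed).

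Other measures also moved with CEP701. RNA quality, read as actin signal at the 5' end over that at the 3' end, was 0.116 and 0.161 on the CEP701 arrays, against 0.199 and 0.198 for DMSO. The same ratio for GAPDH overlapped, at 0.787 and 0.856 against 0.882 and 0.809. The summed monocyte and granulocyte markers were 8210 to 9414 with CEP701 and 5657 to 5693 with DMSO. Most of each sum was LYZ (8863 and 7656 against 5293 and 5252). ITGAM was also higher (284 and 355 against 157 and 188), AZU1 was lower (20.3 and 8.35 against 61.5 and 70.7) and MPO overlapped. The summed erythroid markers, 55057 to 60357 and 56774 to 64843, overlapped. Most of each sum was TFRC (46343 and 42287 against 44510 and 51632). HBE1 (11721 and 10385 against 9433 and 9887) and EPOR (524 and 540 against 205 and 293) were higher. HBB (1065 and 806 against 1509 and 1613) and HBD (446 and 653 against 894 and 1013) were lower. HBZ, ALAS2 and AHSP overlapped. The part of these measures in the members' values was not tested.

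**Figure D3:**
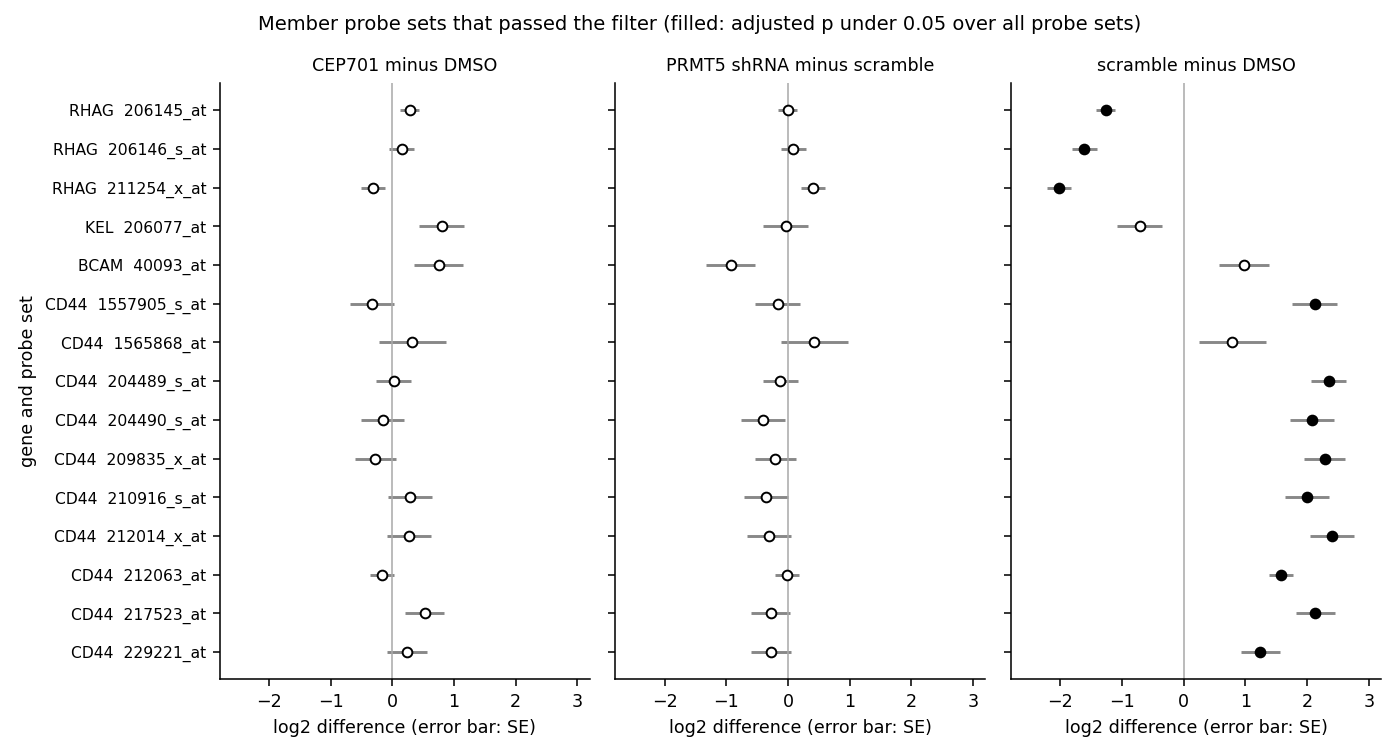
Log2 difference with its SE for the 15 member probe sets that passed the filter, in 3 comparisons, with filled symbols for adjusted p under 0.05. No symbol is filled for CEP701 or PRMT5 shRNA, and the 3 RHAG probe sets and 9 of 10 CD44 probe sets are filled, in opposite directions, for scramble minus DMSO.

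Setting PRMT5 shRNA beside scramble shRNA asks whether the knockdown changed these transcripts. RHAG averaged 7358 ± 1132 against 7416 ± 1272, KEL 247 ± 142 against 240 ± 76.4, CD44 26800 ± 8689 against 26611 ± 3130 and BCAM 72.9 ± 27.5 against 147 ± 40.3 (SD, n = 2). None of the 4 genes passed limma's test over all genes, 1 (BCAM) had an unadjusted p under 0.05, and 0.148% of all genes passed. Each of the 22 alternatives also called 0 members. RNA quality differed between these groups too: the actin ratio of 5' to 3' signal was 0.187 and 0.335 with PRMT5 shRNA and 0.141 and 0.179 with scramble, and that of GAPDH 0.729 and 0.778 against 0.846 and 0.883. Its part in the values of this comparison, those of BCAM, ADD1 and SPP1 among them, was not tested.

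BCAM was 1.91-fold lower with PRMT5 shRNA, at a log2 difference of -0.93 ± 0.41 (SE; limma adjusted p = 0.743; interval -1.86 to -0.01). Its groups did not overlap, which held for 30.2% of all genes. The titles of the shRNA arm carry a suffix that 1 array of each group shares. Between arrays of the same suffix the difference was -0.32 and -1.54, so the pairs differed widely in size. The other 3 genes had differences near 0: RHAG -0.01 (interval -0.37 to 0.35), KEL -0.04 (-0.88 to 0.80) and CD44 -0.02 (-0.47 to 0.43). Of the 10 CD44 probe sets 1 was higher and 9 lower, and none passed (0.116% of all probe sets did). The pairs went in opposite directions for each of these. RHAG was at 0.32 and -0.34, KEL at 0.24 and -0.32, and CD44 at -0.24 and 0.19.

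The arrays also separated by title suffix for 2 of the 4 genes, CD44 and KEL, a share near the background: 25.0% of all genes were higher and 25.0% lower in replicate 2. Replicate 2 of both groups, which shares a suffix, had higher CD44 signal than replicate 1 of both groups at 7 of 10 probe sets and lower signal at 2, all read from 1 gene. At probe set 204489_s_at the signals were 7146 and 5921 for replicate 1 and 11137 and 11222 for replicate 2 (scramble and PRMT5 shRNA). KEL was lower in replicate 2 of both groups. What the suffix marks is not given in the labels.

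Setting the effects against each other, the drug effect minus the knockdown effect was 1.68 ± 0.58 for BCAM, 0.84 ± 0.53 for KEL, 0.29 ± 0.22 for RHAG and -0.15 ± 0.28 for CD44 on the log2 scale (SE). None passed (limma adjusted p = 0.164, 0.410, 0.511 and 0.819), 1 had an unadjusted p under 0.05, and 1.43% of all genes passed, 1.11% higher and 0.325% lower.

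The control groups themselves differed in RHAG and CD44. RHAG was 2.41-fold lower with scramble shRNA than with DMSO (log2 difference -1.27 ± 0.16; limma adjusted p = 1.96e-04), and CD44 was 2.97-fold higher (1.57 ± 0.20; adjusted p = 2.22e-04). KEL was at -0.72 ± 0.37 (adjusted p = 0.147) and BCAM at 0.98 ± 0.41 (adjusted p = 0.0808). Thus 2 of 4 members passed, where 45.8% of all genes did (25.5% higher and 20.3% lower), so the share is near the background. That split was 17.9% and 28.6% with median scaling and 14.3% and 26.4% with poly-A control scaling. No member's groups overlapped, 2 being higher and 2 lower, where 74.1% of all genes did not overlap (40.8% higher and 33.2% lower). RHAG and CD44 passed in all 21 alternatives, RHAG between -1.67 and -1.09 and CD44 between 1.17 and 1.90. KEL passed in 3 of 21: with median scaling and without either PRMT5 shRNA array. These values use the same control arrays as the treatment comparisons.

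All 3 RHAG probe sets were lower with scramble shRNA, at -1.27, -1.62 and -2.03, with adjusted p from 3.24e-05 to 1.75e-04 when every probe set was tested on its own (39.3% of all probe sets passed). All 10 CD44 probe sets were higher, between 0.79 and 2.41, and 9 passed. The brightest, 212063_at, had 1 of the smaller differences (1.57), while 204489_s_at stood at 2.35 and 212014_x_at at 2.41. The exception was 1565868_at (0.79; adjusted p = 0.281), which exceeded the filter's minimum on 3 arrays. The other 3 CD44 probe sets lay between 1.99 and 53.1 on all arrays and were not tested.

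Of 31 other blood group carriers of the red cell surface, 28 were measured. With CEP701 3 rose and 1 fell, where 3.74% of all genes rose and 2.04% fell, and the median log2 change was 0.42 against 0.10 for all genes. CR1, a complement receptor that carries the Knops antigens, rose 2.99-fold, from 151 and 113 to 376 and 448 (limma adjusted p = 0.0149). ICAM4, an adhesion protein that carries the Landsteiner-Wiener antigens, rose 2.01-fold, from 3171 and 2787 to 5925 and 6058 (adjusted p = 0.0271). SMIM1, which carries the Vel antigen, rose 1.94-fold, from 592 and 729 to 1338 and 1229 (adjusted p = 0.0466). CD47, a signal against engulfment that sits in the Rh complex with RHAG, fell 1.46-fold, from 25638 and 28279 to 19837 and 17091 (adjusted p = 0.0420).

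Each of these calls was lost without any 1 of the 4 drug-arm arrays. CR1 passed in 17 of 22 alternatives, ICAM4 in 14, CD47 in 14 and SMIM1 in 10. Without the variance trend 1 carrier rose and none fell, and the same counts held with the replicate block by number in the drug arm. CD47 was at 0.13 when its probe sets were averaged, so its direction rests on the brightest one. The counts depended on the scaling: 1 rose and 2 fell with median scaling, and none rose and 3 fell with poly-A control scaling, where the list's median was -0.08 against -0.40 for all genes. The median was 0.23 with the mean of probe sets. With the 4 drug-arm arrays fitted alone, 9 carriers rose and 2 fell, where 12.6% of all genes rose and 10.1% fell. With PRMT5 shRNA none of the 28 passed, where 0.00706% of all genes rose and 0.141% fell, and the median was -0.16 against 0.00 for all genes. The lowest p was that of ACKR1, the Duffy antigen receptor for chemokines, with 102 and 70.4 on the scramble arrays, 14.5 and 31.2 on the PRMT5 shRNA arrays and a log2 difference of -1.58 (adjusted p = 0.163), with both PRMT5 shRNA values below the filter's minimum. It passed in 1 of 22 alternatives. With CEP701 ACKR1 stood at 0.43.

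Of 17 enzymes that build blood group sugars and the O-glycans of glycophorins, 15 were measured. None passed in either arm, where 5.78% of all genes did with CEP701 and 0.148% with PRMT5 shRNA. The medians were 0.08 with CEP701 and 0.06 with PRMT5 shRNA, against 0.10 and 0.00 for all genes. GALNT2, which starts O-glycans, came closest with CEP701, at 4172 and 5718 against 3239 and 2868 (log2 difference 0.68, limma adjusted p = 0.0523). It passed in 7 of 22 alternatives. B3GALNT1, which makes globoside, the carrier of the P antigen, had the lowest p with PRMT5 shRNA (-0.44; adjusted p = 0.775). With the drug-arm arrays alone 4 of the 15 rose and 2 fell, where 22.7% of all genes passed.

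Of 12 membrane skeleton partners, 11 were measured. With CEP701 2 rose (median 0.17): ADD1, an adducin that caps actin under the membrane, and SLC2A1, a glucose transporter of the junctional complex. Of all genes 3.74% rose and 2.04% fell, with a median of 0.10. ADD1 rose 1.76-fold, from 3529 and 3325 to 5736 and 6369 (limma adjusted p = 0.0204). SLC2A1 rose 2.04-fold, from 1032 and 1130 to 2441 and 2006 (adjusted p = 0.0222). Each call was lost without any 1 of the 4 drug-arm arrays. Neither passed with median scaling (list median -0.05), with poly-A control scaling (-0.34), without the variance trend or with the replicate block by number in the drug arm. ADD1 passed in 14 of 22 alternatives and SLC2A1 in 13. With PRMT5 shRNA 1 of the 11 fell, where 0.00706% of all genes rose and 0.141% fell (median -0.03 against 0.00 for all genes). It was ADD1 again, from 3667 and 4515 to 1839 and 1978 (log2 difference -1.09; adjusted p = 0.0411), a call kept in 10 of 22 alternatives. Leaving out an array ended that call except for scramble replicate 1, and fitting the shRNA arm alone gave adjusted p = 0.529. SLC2A1 was at -0.94 (adjusted p = 0.182).

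Of 19 CD44 ligands, sheddases, splicing regulators and cytoskeletal linkers, 14 were measured. With CEP701 1 rose: SRGN, the core protein of a proteoglycan that binds CD44, from 12772 and 10613 to 18976 and 16724 (log2 difference 0.61; limma adjusted p = 0.0419). It passed in 11 of 22 alternatives, in none of those without a drug-arm array, and stood at 0.11 with poly-A control scaling and 0.28 with the mean of its probe sets. With PRMT5 shRNA 1 fell: SPP1, osteopontin, a secreted ligand of CD44. Its signals were 9335 and 9964 on the scramble arrays, 1417 and 2029 on the PRMT5 shRNA arrays and 49.6 to 77.0 in the drug arm, and it fell 5.66-fold (adjusted p = 0.0103, and 1.56e-04 to 0.100 over the alternatives). Without scramble replicate 2 it had adjusted p = 0.100, and without PRMT5 shRNA replicate 1 it had 0.0501. The list medians were 0.03 and -0.06, against 0.10 and 0.00 for all genes. Of all genes 3.74% rose and 2.04% fell with CEP701, and 0.00706% rose and 0.141% fell with PRMT5 shRNA.

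None of 6 measured BCAM ligands (of 7) and none of 4 measured genes of the endothelin system (of 7) passed with CEP701 or PRMT5 shRNA. Of all genes 5.78% passed with CEP701 and 0.148% with PRMT5 shRNA. LAMB2, a laminin chain, stood at 0.61 with CEP701 (limma adjusted p = 0.331) and LAMA5, the laminin chain that BCAM binds, at -1.26 with PRMT5 shRNA (adjusted p = 0.780). EDN1, an endothelin, stood at -1.59 with CEP701 (adjusted p = 0.0668), from signals of 43.8 and 38.3 to 2.53 and 12.7, all below the filter's minimum. EDN1 passed in 3 of 22 alternatives. ECE1, which activates endothelins, was at -0.89 with PRMT5 shRNA (adjusted p = 0.722) but at 0.32 as the mean of its probe sets.

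Of 11 erythroid transcription factors, all measured, 1 fell with CEP701: GFI1B, a repressor needed by red cell and platelet precursors, fell 2.36-fold from 3273 and 3747 to 1453 and 1502 (limma adjusted p = 0.00504). Its call was lost without either CEP701 array and without DMSO replicate 2 (adjusted p between 0.0790 and 0.0833). The list's median was 0.01 against 0.10 for all genes, of which 3.74% rose and 2.04% fell. None passed with PRMT5 shRNA (median -0.11 against 0.00 for all genes, of which 0.148% passed). There GATA2, a factor of early blood cells, had the lowest p (-0.37, limma adjusted p = 0.748).

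**Figure D4:**
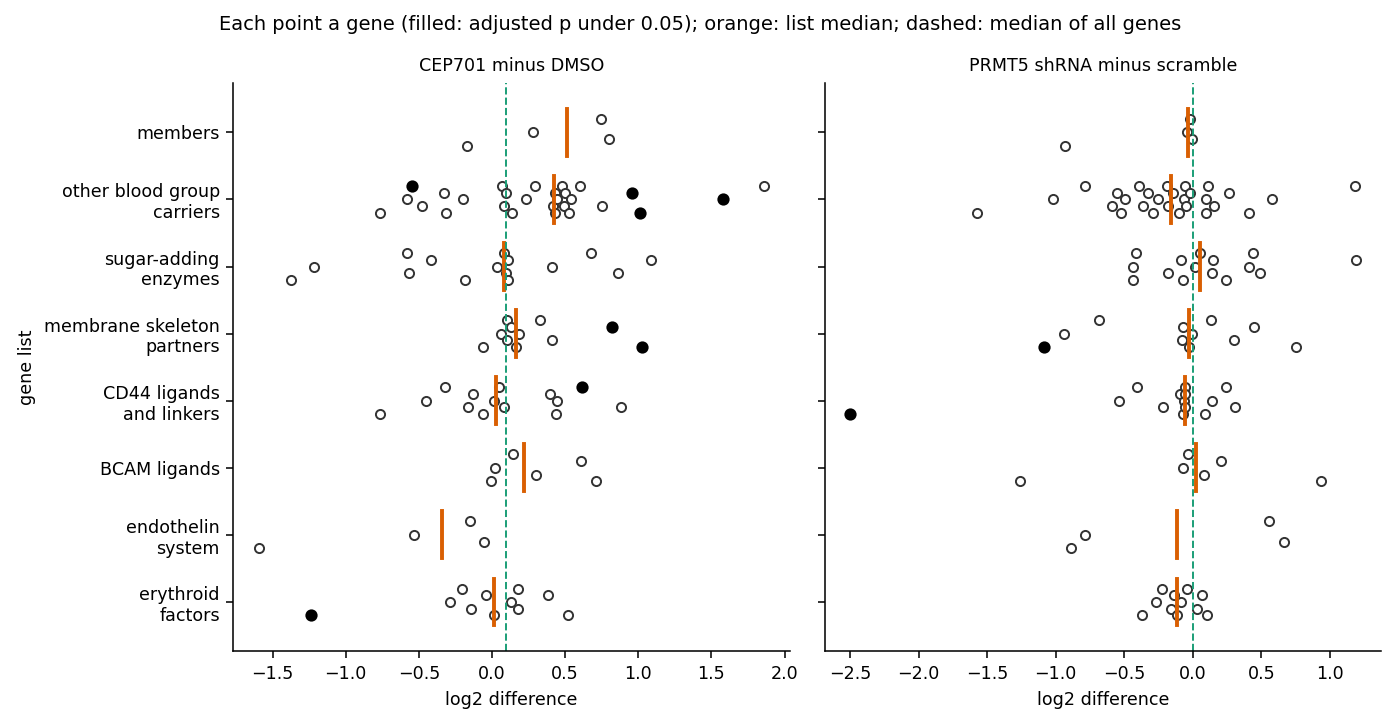
Log2 difference of each measured gene in the members and in 7 gene lists, with CEP701 against DMSO on the left and PRMT5 shRNA against scramble on the right. Filled symbols have adjusted p under 0.05, orange bars are list medians and the dashed line is the median of all genes; the carriers' median with CEP701 (0.42) lies to the right of the line at 0.10.

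Across the 8 arrays the genes most like each member in log2 signal were NRN1, CLDN10 and DGUOK for RHAG (Pearson's r = 0.997, 0.996 and 0.996), and CSGALNACT2, HLA-B and DENND1B for CD44 (0.997, 0.996 and 0.996). For KEL they were SLC39A8, GPATCH11 and EIF3D (0.989, 0.980 and 0.977), and for BCAM SPATS1, PBX2 and POMT2 (0.961, 0.930 and 0.923). The arrays fall into 2 arms, which these correlations share, so they are a description of these 8 arrays only.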

How the data were processed

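Signals were deposited by the authors as 1 intensity per probe set and array on a linear scale, made with MAS5 in Affymetrix Expression Console per the submitters' processing notes; other settings are not given in the sources used here. Trimmed means (2% left out at each end) were 500.1 on all arrays. Probe sets were named from the platform annotation (41097 name 1 gene), with symbols updated through a RefSeq table. Signals had 10 added before log2; probe sets above 60.0 on at least 2 arrays were kept, the brightest standing for its gene. All 8 arrays were fitted in 1 model with limma 3.58.1 in R 4.3.3 (trended eBayes; 4 residual degrees of freedom), with Benjamini-Hochberg adjustment over all genes and a threshold of 0.05. The calculation was tested on simulated data. Figures used matplotlib 3.10.9. SDs are of signals, and fold changes include the added 10.

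The members, 7 gene lists and tests were chosen with earlier results of these data known. The genes named are the members and, from each list, up to 4 passing genes of lowest p per treatment comparison, or else the gene of lowest p. For each member the 3 genes of highest correlation over the 8 arrays are also named. Alternatives changed the added constant, filter, normalization, probe set choice, arrays, variance model and pairing.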

Additional observations from a re-analysis of the deposited data

Results flagged for a closer look

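The drug effect (CEP701 minus DMSO) was set against the knockdown effect (PRMT5 shRNA minus scramble) on the log2 scale. By limma's test of the difference itself, ADD1 differed by 1.91 (0.82 against -1.09; adjusted p = 0.00893), SLC2A1 by 1.97 (1.03 against -0.94; adjusted p = 0.0188), SPP1 by 2.37 (-0.13 against -2.50; adjusted p = 0.0238), CR1 by 1.94 (1.58 against -0.36; adjusted p = 0.0429) and GFI1B by -1.08 (-1.24 against -0.16; adjusted p = 0.0443). None of these 5 calls held without any 1 of the 4 drug-arm arrays or without the variance trend, where 0 genes passed. SPP1 was near the filter's minimum on all drug-arm arrays (49.6 to 77.0), so a fall like that in the shRNA arm could not be seen there. Among the genes named in the text, 3 more had both treated arrays beyond both controls in opposite directions in the arms, without passing the test of the difference. Such opposite groups, whether or not the difference passed, were found for 12 of the 93 measured members and list genes (12.9%) and 10.4% of all genes. The difference did not pass for 9 of those 12, nor for 1349 of the 1477 among all genes. The 3 were BCAM at 1.68 (adjusted p = 0.164), ACKR1 at 2.01 (adjusted p = 0.0653, with both PRMT5 shRNA values below the filter's minimum) and GALNT2 at 0.86 (adjusted p = 0.110). The arms differ in cell markers as well as in treatment, and the part of that in these differences was not tested.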

How the results depend on the processing

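With 2 arrays per group, the counts for both treatments and for their difference depended on single arrays. For CEP701, 819 genes passed, and 6 to 1233 when 1 array was left out. The count was 489 with no filter, 455 with quantile normalization, 537 with the mean of probe sets, 167 without the variance trend, 3208 with the drug arm alone and 1254 with every probe set tested. For PRMT5 shRNA, 21 passed, and 3 to 27 with 1 array left out; 32 passed with 50 added to the signal, 0 with the arm alone, 0 without the trend and 38 with every probe set tested. For the difference of the effects, 203 passed, and 0 to 808 with 1 array left out; the count was 132 with no filter, 115 with quantile normalization, 124 with median scaling, 40 with poly-A control scaling, 117 with the mean of probe sets and 0 without the trend. For scramble minus DMSO, 6486 genes passed, 4520 to 6795 with 1 array left out, and 12822 probe sets when each was tested. With the replicate block by title suffix, 3155, 247 and 2456 genes passed for CEP701, PRMT5 shRNA and the difference; PRMT5 (adjusted p = 8.91e-05) and ACKR1 (0.0294) then passed for PRMT5 shRNA and KEL (0.0217) for CEP701. Deviations of arrays sharing a suffix correlated at r = 0.323 across genes, with 2 pairs only and no label saying what the suffix marks. With the replicate block by number in the drug arm, 271, 3 and 22 did (r = -0.01); those arrays share only a number. Of the members, 1 (KEL) passed for CEP701 with the drug arm alone and 1 (KEL) with the suffix block, against 0 otherwise; no other member's call changed apart from KEL for scramble minus DMSO.

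Signs turned as follows. With poly-A control scaling RHAG stood at -0.22 for CEP701, 0.027 for PRMT5 shRNA and -0.25 for the difference, and CD44 at 0.013 for PRMT5 shRNA. With the mean of probe sets RHAG stood at 0.16 for PRMT5 shRNA and -0.12 for the difference, CD44 at 0.072 for CEP701 and 0.25 for the difference, CD47 at 0.13 for CEP701 and ECE1 at 0.32 for PRMT5 shRNA. With quantile normalization CD44 stood at 0.0050 for PRMT5 shRNA. Leaving out 1 array put RHAG between -0.18 and 0.17, KEL between -0.64 and 0.55 and CD44 between -0.36 and 0.31 for PRMT5 shRNA, and CD44 between -0.48 and 0.19 for the difference. The cause of these changes was not tested.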
